A study of Mus musculus with 3 samples.

Results

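Polycomb proteins, histone demethylases, deacetylases and methyltransferases, and the enzymes of DNA methylation were examined in embryonic mouse mammary cells. The 48 genes were chosen by symbol (Kdm, Hdac, Cbx, Ezh, Dnmt, Tet and Kmt2 families with Eed, Suz12, Jarid2, Bmi1, Ring1, Rnf2 and Uhrf1; Kdm5d and Kdm8 were left out by the rule), out of 17097 genes that had a probe set annotated to them alone. Each gene was represented by its probe set with the highest mean. RNA had been profiled on 3 Affymetrix arrays, 1 per pool of female Lgr5-IRES-GFP embryos from a single litter, at embryonic day 14. All 3 samples formed 1 group, CD49fHi Lgr5Hi, with no untreated, mutant or adult sample beside it. Every embryo carried a green fluorescent reporter at the locus of Lgr5, an R-spondin receptor gene, and CD49f is the integrin alpha 6 chain of basal epithelium. The cells came from digested epidermis and mammary gland, and 813 or 2000 cells were sorted per sample without a statement of which sample had which number.

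Polycomb repressive complex 2 (PRC2) methylates histone H3 at lysine 27, and Polycomb repressive complex 1 (PRC1) binds that mark and ubiquitinates histone H2A, which together keep developmental genes silent. Lysine demethylases (KDM), deacetylases (HDAC) and the MLL family of lysine 4 methyltransferases remove or add other histone marks, while DNA methyltransferases (DNMT) and TET oxidases write and erase cytosine methylation. In skin and mammary epithelium, Polycomb and DNA methylation are known to take part in keeping progenitor cells proliferating and lineage genes silent.

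The arrays were not evenly spaced. Replicates 1 and 2 correlated at r = 0.994 over all probe sets, and replicate 3 correlated with them at 0.942 and 0.944 (probe sets are not independent replicates). The SD of the difference was 0.194 between replicates 1 and 2, against 0.623 and 0.613 for the pairs with replicate 3. The array medians (log2) were 6.25 for replicate 1, 6.25 for replicate 2 and 6.52 for replicate 3. Each litter was on 1 array, so litter, number of cells and array processing cannot be told apart. All 7 basal markers (Cdh3, Itga6, Itgb4, Krt14, Krt5, Lgr5 and Trp63) and all 5 luminal markers (Cd24a, Epcam, Krt18, Krt19 and Krt8) were above background, and so were all 8 measured proliferation genes. The group label names CD49f, the product of Itga6, and Lgr5 as high, so detection of these genes is not independent of the sort. Dermal mesenchyme markers were above background as well, 7 of 8, with a mean log2 level of 10.06, 9.90 and 9.96 on replicates 1, 2 and 3, while Pdgfra was not. That mean includes Pdgfra, which had 4.62, 4.52 and 5.52. Endothelial, leukocyte and erythroid markers reached 1 of 5, 2 of 5 and 1 of 3, and suprabasal epidermis markers 2 of 5. Of all genes, 52.5% were above background, and of genes restricted to unrelated tissues, 11 of 43. The arrays measured pools of cells, so the levels below cannot be assigned to epithelial or mesenchymal cells, fewer expressing cells cannot be told from less RNA per cell, and the part of dermal RNA in them was not tested.

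Chromatin enzyme genes were mostly detected. Of the 48 genes, 40 (83.3%) were above background, against 52.5% of all genes tested. Background was the 95th percentile of 78 olfactory and vomeronasal receptor genes on each array (6.29 for replicate 1, 6.23 for replicate 2 and 6.22 for replicate 3, log2), and a gene was called above it by limma at a Benjamini-Hochberg adjusted p under 0.05. The 8 genes not above background were Dnmt3b, Dnmt3l, Kdm1b, Kdm2a, Kdm4a, Kdm4c, Kdm4d and Hdac8. The median height above the threshold was 2.62 on the log2 scale for the 48 genes and 0.63 for all genes. The 40 detected genes were also those that lay above the threshold on each of the 3 arrays. The genes just inside the call were Kdm7a (adjusted p = 0.0443, limma) and Eed (adjusted p = 0.0197), and the nearest outside was Kdm2a (adjusted p = 0.412). The call counts were 39 without replicate 1, 39 without replicate 2, 41 without replicate 3 and 39 with replicates 1 and 2 averaged into 1 sample. These fits borrowed their variance mostly from all genes, so the counts do not measure the spread between litters.

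The brightest probe set of a gene favours a call, so the probe sets were also counted one by one. Of 105 probe sets of these genes, 77 (73.3%) were above background, against 46.8% of all probe sets of a single gene. Genes with 1 probe set were called in 15 of 21 cases (71.4%), against 39.7% of all genes with 1 probe set. Genes with several were called in 25 of 27 cases (92.6%), against 70.1% of all such genes. Among the 27, 12 had every probe set above background, 12 had some and 3 (Dnmt3b, Kdm2a and Kdm7a) had none when probe sets were tested singly. Kdm7a passed as a gene and missed as a probe set (adjusted p = 0.0547, limma over all probe sets).

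**Figure D1:**
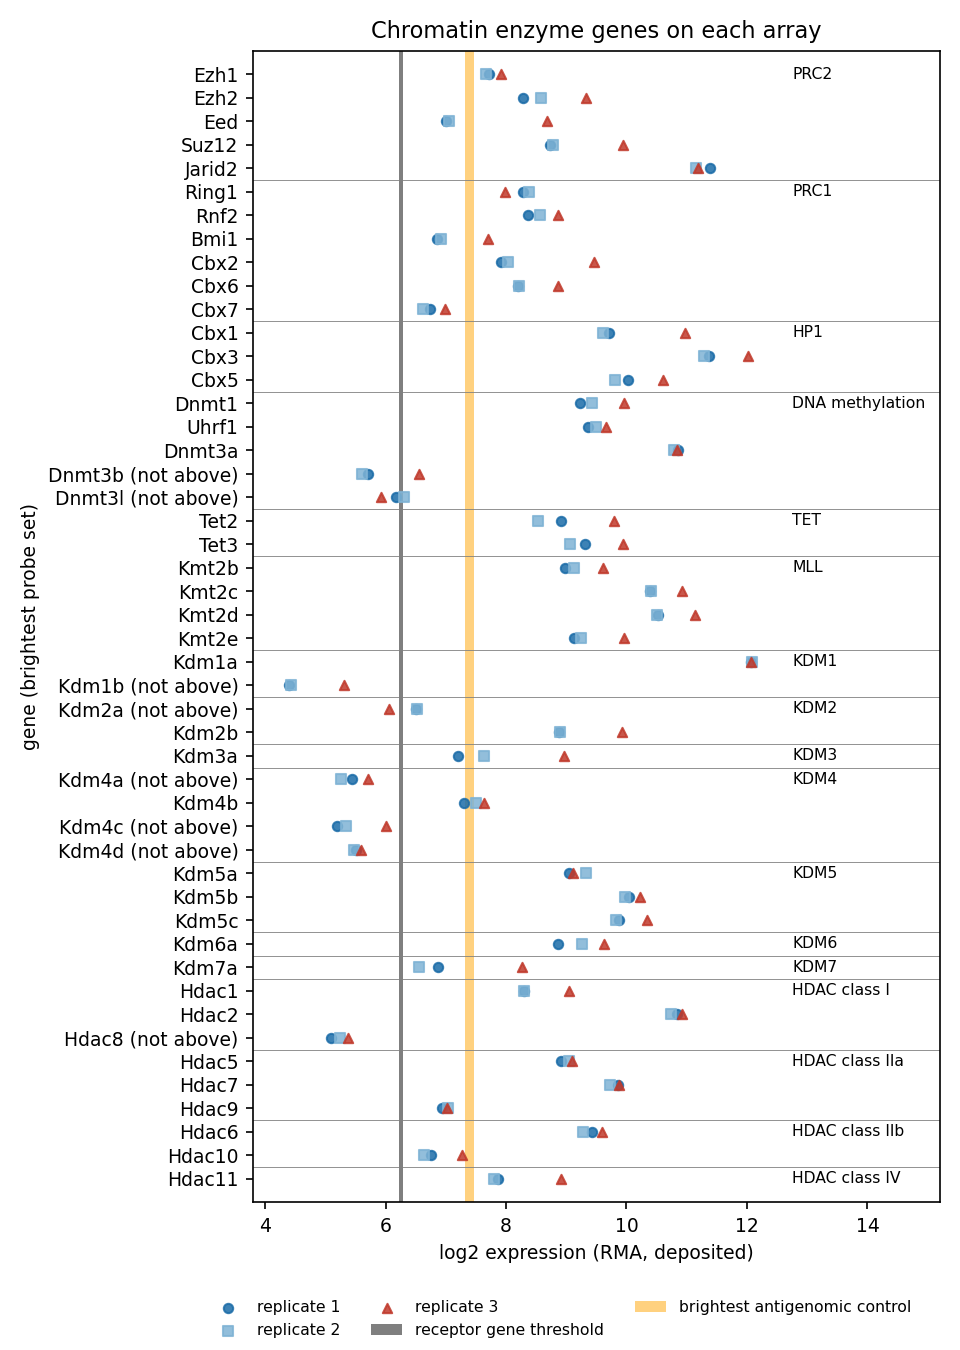
Deposited log2 expression of the 48 genes (brightest probe set, grouped by family) on replicates 1, 2 and 3, with the range over arrays of the receptor gene threshold (grey) and of the brightest antigenomic control (orange). The 40 genes above background lie right of the grey line on each array, and levels of different genes are not comparable because each has its own probes.

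Promoter sequences of relatives that differed in detection are shown first, because CpG dinucleotides in them are the substrate of the DNA methylation enzymes. They are the 150 bases before the most upstream RefSeq start of each gene, build GRCm38.p6, 5′ to 3′ on the strand of the gene, with CpG in capitals. The set holds the de novo DNA methyltransferase family (Dnmt3a above background, Dnmt3b and its inactive cofactor Dnmt3l not), a pair of class I deacetylases (Hdac2 above, Hdac8 not) and the pair of flavin-dependent demethylases (Kdm1a above, Kdm1b not).
Dnmt3a, chr12:3806830-3806979, plus strand: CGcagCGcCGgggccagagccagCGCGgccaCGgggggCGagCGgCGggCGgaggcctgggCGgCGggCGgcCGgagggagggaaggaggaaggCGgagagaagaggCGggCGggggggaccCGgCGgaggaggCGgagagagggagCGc
Dnmt3b, chr2:153649299-153649448, plus strand: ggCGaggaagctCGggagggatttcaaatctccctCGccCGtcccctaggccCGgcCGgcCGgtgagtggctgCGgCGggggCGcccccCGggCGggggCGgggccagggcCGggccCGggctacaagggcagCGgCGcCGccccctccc
Dnmt3l, chr10:78042137-78042286, plus strand: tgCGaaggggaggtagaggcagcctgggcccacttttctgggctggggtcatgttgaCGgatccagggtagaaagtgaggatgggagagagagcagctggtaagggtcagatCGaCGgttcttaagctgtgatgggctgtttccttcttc
Hdac2, chr10:36974394-36974543, plus strand: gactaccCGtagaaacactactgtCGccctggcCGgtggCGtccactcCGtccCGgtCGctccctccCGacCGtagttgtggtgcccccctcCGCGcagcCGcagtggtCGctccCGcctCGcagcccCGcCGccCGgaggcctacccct
Hdac8, chrX:102505159-102505308, minus strand: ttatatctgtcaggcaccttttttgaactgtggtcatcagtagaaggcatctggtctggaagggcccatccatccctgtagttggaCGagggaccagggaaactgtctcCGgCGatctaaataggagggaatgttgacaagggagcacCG
Kdm1a, chr4:136602724-136602873, minus strand: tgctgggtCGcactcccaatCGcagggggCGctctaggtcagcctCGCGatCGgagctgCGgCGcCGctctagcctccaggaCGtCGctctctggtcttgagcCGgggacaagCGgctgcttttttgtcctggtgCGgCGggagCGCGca
Kdm1b, chr13:47043349-47043498, plus strand: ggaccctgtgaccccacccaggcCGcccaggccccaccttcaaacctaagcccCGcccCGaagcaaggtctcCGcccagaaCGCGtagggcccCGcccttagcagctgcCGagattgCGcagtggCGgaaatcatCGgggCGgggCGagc
The counts of CpG in these windows were 21 for Dnmt3a, 18 for Dnmt3b, 4 for Dnmt3l, 18 for Hdac2, 4 for Hdac8, 17 for Kdm1a and 13 for Kdm1b, beside a median of 9 over 13514 measured genes with a promoter entry. Dnmt3b and Kdm1b, both not above background, thus had more CpG than the median gene, while Dnmt3l and Hdac8 had fewer.

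PRC2 genes were above background in 5 of 5 cases by the receptor gene threshold, beside 52.5% of all genes. Ezh2, the catalytic subunit of dividing cells, stood at 8.28, 8.58 and 9.33 (log2, in the order of the replicates; 8.73 ± 0.54, SD, n = 3), and its mean exceeded the threshold by 2.48 (adjusted p = 0.000382, limma). Its paralog Ezh1, which is known for its expression in resting tissue, stood at 7.72, 7.66 and 7.92 (adjusted p = 0.000303). Only 2 of the 4 probe sets of Ezh1 were above background, and its call was lost with the mean of its probe sets (0.09 above the threshold, adjusted p = 0.439). Suz12, the scaffold subunit, stood at 8.72, 8.79 and 9.94, and 5 of its 6 probe sets were above background. Eed, the subunit that binds the methylated histone tail, had 7.003, 7.06 and 8.68 (adjusted p = 0.0197). Its call was lost with the antigenomic control (0.20 above it, adjusted p = 0.761) and with tissue-restricted genes as background (0.07 above it, adjusted p = 1). For Eed and Suz12 the values of replicates 1 and 2 lay together and that of replicate 3 lay higher by 1.65 and 1.18. Jarid2, an accessory subunit that helps recruit PRC2, had 11.39, 11.15 and 11.19 (adjusted p = 5.24e-06) and was highest on replicate 1. All 3 of its probe sets were above background, and the other 2 were highest on replicate 3 with 10.98 and 9.75.

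PRC1 genes were detected too, with 6 of 6 above background beside 52.5% of all genes, though Bmi1 and Cbx7 lay near the threshold. The E3 ligase genes Ring1 and Rnf2 stood at 8.21 ± 0.21 and 8.60 ± 0.25 (SD, n = 3). Ring1 was lower on replicate 3 (7.98) than on replicates 1 and 2 (8.28 and 8.38), and Rnf2 was higher there as deposited (8.87, against 8.37 and 8.56), though not after quantile normalization (a difference of -0.02). Bmi1, a PCGF subunit gene known for stem cell self-renewal, had 6.85, 6.92 and 7.71 (adjusted p = 0.0114, limma). Its other probe set had 5.98, 5.83 and 8.11 and was not above background. The chromodomain subunit that brings PRC1 to the PRC2 mark is encoded by several Cbx genes, and the 3 measured here were above background and highest on replicate 3 as deposited. Cbx2 stood at 7.92, 8.03 and 9.46 (adjusted p = 0.0927, limma, with tissue-restricted genes as background), and Cbx6 at 8.20, 8.21 and 8.86. Cbx7 had 6.74, 6.62 and 6.98 (0.53 above the threshold, adjusted p = 0.0152), with 1 of 3 probe sets above background. Its adjusted p was 0.0787 without replicate 1 and 0.0707 without replicate 2, and 0.529 when probe sets marked by Affymetrix for cross-hybridisation were dropped.

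The HP1 proteins, which read methylated lysine 9 of histone H3, are encoded by the remaining Cbx genes. All 3 of these genes were above background, beside 70.1% of all genes that, like these, had several probe sets. Cbx3 stood at 11.36, 11.29 and 12.02, Cbx5 at 10.03, 9.81 and 10.60, and Cbx1 at 9.71, 9.62 and 10.97 on replicates 1, 2 and 3. All 3 were highest on replicate 3 by the brightest probe set. The 4 probe sets of Cbx1 disagreed, since one of the others had 7.60, 7.64 and 6.93 and another 7.57, 7.55 and 6.69, both lowest on replicate 3. The direction of Cbx1 between litters therefore depended on the probe set.

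Of the 5 DNA methylation genes, 3 were above background, beside 52.5% of all genes. Dnmt1, the maintenance methyltransferase of dividing cells, stood at 9.23, 9.43 and 9.97 (adjusted p = 6.44e-05, limma), and its cofactor Uhrf1, which recognises hemimethylated DNA, had 9.36, 9.50 and 9.65 (adjusted p = 2.61e-05). Of the de novo enzymes, Dnmt3a stood at 10.86, 10.79 and 10.84, 4.58 above the threshold (adjusted p = 6.61e-06), with all 5 of its probe sets above background. Dnmt3b had 5.71, 5.61 and 6.56, and neither of its probe sets was above background (adjusted p = 1). Dnmt3b exceeded the threshold on replicate 3 and lay below it on the others. Dnmt3l, a catalytically inactive partner known from germ cells, had 6.18, 6.31 and 5.93 (adjusted p = 1). The height of Dnmt3a and of Dnmt3b above the threshold is a difference within each gene, and the genes were not set against each other since their probes differ.

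Both measured TET genes, which encode oxidases of 5-methylcytosine, were detected, beside 52.5% of all genes. Tet2 stood at 8.90, 8.53 and 9.80 on replicates 1, 2 and 3 (adjusted p = 0.000361, limma), and both of its probe sets were above background. Tet3 stood at 9.31, 9.06 and 9.94 (adjusted p = 9.47e-05). For both genes replicate 2 was lowest and replicate 3 highest.

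MLL family genes were above background in 4 of 4 cases, beside 52.5% of all genes. Kmt2d and Kmt2c, which encode the enzymes of enhancer monomethylation at lysine 4, had 10.73 ± 0.36 and 10.58 ± 0.30 (SD, n = 3). Kmt2b, a promoter methyltransferase gene, had 9.24 ± 0.33, and Kmt2e, whose product has a divergent SET domain, had 9.45 ± 0.45. All 4 probe sets of Kmt2c and 3 of 5 of Kmt2e were above background. All 4 genes were highest on replicate 3 as deposited.

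Of 14 lysine demethylase genes, 9 passed the background test, beside 52.5% of all genes. Kdm1a, which encodes LSD1, a flavin-dependent demethylase of lysine 4, was 5.82 above the threshold (adjusted p = 2.97e-06, limma). By its brightest probe set it had 12.07, 12.08 and 12.07, the narrowest spread among the 48 genes. Its other probe set had 9.22, 9.17 and 10.005. Its relative Kdm1b, known from the growing oocyte, had 4.39, 4.43 and 5.30 and was below the threshold on each array. In the JmjC class, which uses iron and oxoglutarate, the lysine 4 demethylase genes Kdm5a, Kdm5b and Kdm5c were detected at 9.16 ± 0.15, 10.08 ± 0.13 and 10.02 ± 0.29 (SD, n = 3). All 7 probe sets of Kdm5c were above background. Kdm6a, which removes the PRC2 mark, stood at 8.86, 9.25 and 9.62, with 2 of 3 probe sets above background. Kdm5c and Kdm6a lie on the X chromosome, as do Hdac6 and Hdac8, and 3 of these 4 genes were above background.

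The KDM4 genes, which encode demethylases of lysine 9 and, for some of them, of lysine 36, passed in 1 of 4 cases. The share was 39.7% of all genes that, like these, had 1 probe set. The detected gene was Kdm4b, at 7.31, 7.51 and 7.64 (adjusted p = 0.00077, limma), and its call was lost with the antigenomic control (0.10 above it, adjusted p = 0.625). Kdm4a (5.47 ± 0.23), Kdm4c (5.52 ± 0.44) and Kdm4d (5.53 ± 0.06, SD, n = 3) were below the threshold on each array. Kdm2b, a demethylase gene whose product also brings a variant PRC1 to CpG islands, stood at 8.88, 8.89 and 9.93 (adjusted p = 0.000249). Its paralog Kdm2a had 6.50, 6.52 and 6.06 and was not above background (adjusted p = 0.412), but passed without replicate 3 (adjusted p = 0.0165). Kdm3a, a lysine 9 demethylase gene known to respond to low oxygen, had 7.21, 7.64 and 8.96 (adjusted p = 0.00779). Its call was lost with the antigenomic control (0.55 above it, adjusted p = 0.232) and with tissue-restricted genes as background (0.42 above it, adjusted p = 0.491). Kdm7a had 6.87, 6.56 and 8.26, and its other 2 probe sets had mean heights of -0.36 and -1.19 relative to the threshold.

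Histone deacetylase genes were above background in 8 of 9 cases, beside 52.5% of all genes. Of class I, the catalytic subunits of the NuRD and Sin3 complexes were detected, with Hdac1 at 8.30, 8.29 and 9.04 and Hdac2 at 10.84, 10.74 and 10.92 on replicates 1, 2 and 3. Hdac8, a class I gene whose product deacetylates cohesin, had 5.09, 5.24 and 5.38 and was below the threshold on each array. The class IIa genes, whose products shuttle between cytoplasm and nucleus, were all above background: by the brightest probe set Hdac5 had 9.02 ± 0.09, Hdac7 9.82 ± 0.08 and Hdac9 6.99 ± 0.05 (SD, n = 3). The other probe set of Hdac7 had 9.63, 9.69 and 9.02, lowest on replicate 3. Hdac9 lay 0.74 above the threshold, and its second probe set was below it. The tubulin deacetylase gene Hdac6 stood at 9.43 ± 0.15. Hdac10, which encodes a polyamine deacetylase, stood at 6.75, 6.64 and 7.26 (adjusted p = 0.0184, limma). Its other probe set had a mean height of -2.43 relative to the threshold. Both Hdac9 and Hdac10 lay below the antigenomic control (-0.39 and -0.50). Hdac11, the only class IV gene, had 7.87, 7.80 and 8.91 (adjusted p = 0.00137), and its adjusted p was 0.122 with tissue-restricted genes as background.

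The stringency of the background mattered for genes near it, and the plot of shares by threshold gives the counts. Set against the brightest antigenomic control, 32 of the 48 genes were above background, against 31.6% of all genes. With 43 genes restricted to unrelated tissues as background, 29 were above it, against 27.4% of all genes. With the 99th percentile of the receptor genes there were 37, against 45.8%, and with the mean of the probe sets of a gene 34, against 47.8%. The genes above background in each of the 12 alternative settings that measured them numbered 29. They included Ezh2, Suz12, Jarid2, Ring1, Rnf2, Cbx6, all HP1 genes, Dnmt1, Uhrf1, Dnmt3a, both TET genes, all MLL genes, Kdm1a, Kdm2b, Kdm5a, Kdm5b, Kdm5c and Kdm6a, and Hdac1, Hdac2, Hdac5, Hdac6 and Hdac7. Dnmt3b, Dnmt3l, Kdm1b, Kdm4a, Kdm4c, Kdm4d and Hdac8, 7 in all, were above background in none of those that measured them. Bmi1, Cbx7, Kdm7a, Hdac9 and Hdac10 lay below the threshold of the antigenomic control and of the tissue-restricted genes. Eed, Kdm3a and Kdm4b lost their calls under both, and Ezh1, Cbx2 and Hdac11 with tissue-restricted genes.

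**Figure D2:**
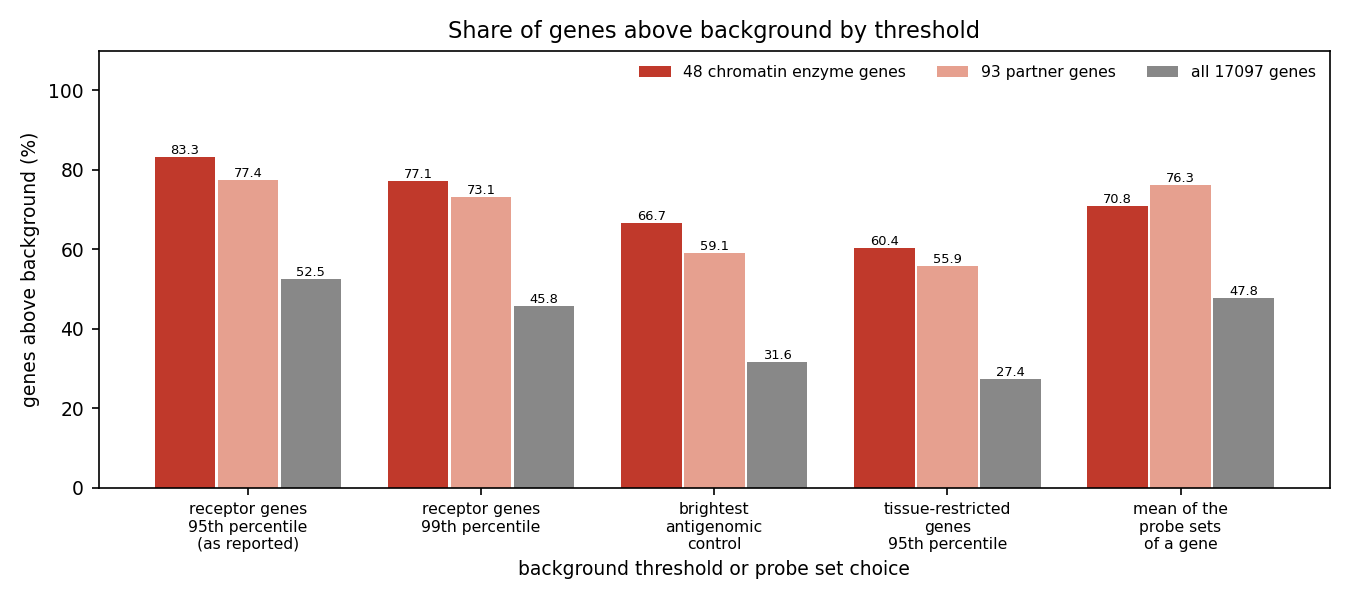
Percentage of genes above background (adjusted p under 0.05) for the 48 chromatin enzyme genes, 93 partner genes and all 17097 genes, under 4 thresholds and with the mean of the probe sets of a gene. The share of the 48 genes was 83.3% as reported and 60.4% with tissue-restricted genes as background, against 52.5% and 27.4% of all genes.

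As deposited, most of these genes were highest on replicate 3, and most genes of the whole array were higher there too. On replicate 3, 42 of 48 genes were above the mean of replicates 1 and 2, against 67.9% of all genes. The median difference was 0.56 on the log2 scale for the 48 genes and 0.22 for all genes. A difference over 1 on the log2 scale was seen in 9 of the 48 (18.8%) on replicate 3, against 9.36% of all genes, and none was lower by as much, against 1.35% of all genes. All 9 were among the 40 genes above background, where the share over all such genes was 9.20% above and 1.29% below. Each litter was measured once, so these differences have no test. Replicates 1 and 2 differed by at most 0.43 in any of the 48 genes (Kdm3a), with a median absolute difference of 0.11 against 0.10 over all genes. Replicate 1 was over 1 below the mean of the others in 1 gene, Kdm3a (-1.09), against 1.51% of all genes, and over 1 above it in none, against 0.158%. Replicate 2 was over 1 below in 1 gene, Kdm7a (-1.01), against 1.17%, and over 1 above in none, against 0.175%.

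Scaling changed the size of the shift, and quantile normalization turned its direction over all genes but not over the 48. Centring each array on its median left 36 of 48 genes higher on replicate 3, against 51.5% of all genes, with a median of 0.36 against 0.02. The number over 1 above was then 5, against 6.21% of all genes, and that over 1 below was 0, against 2.94%. Quantile normalization left 29 of 48 higher on replicate 3, against 41.6% of all genes, with a median of 0.14 against -0.10. It left 4 genes over 1 above, against 4.39%, and 0 over 1 below, against 4.30%. The shares past 1 above were thus 8.33% and 10.4% of the 48 genes under quantile normalization and centring. As deposited, basal markers averaged 10.33, 10.59 and 10.80 on replicates 1, 2 and 3, and luminal markers 9.42, 9.69 and 9.94. Proliferation markers averaged 8.99, 9.14 and 9.46, endothelial markers 6.33, 6.33 and 6.04, and erythroid markers 6.45, 6.48 and 6.12. Among endothelial markers only Pecam1 (8.12, 8.30 and 6.47) was above background, and among erythroid markers only Klf1 (8.56, 8.66 and 7.22). On replicate 3 the other endothelial genes went both ways and the other erythroid genes were not lower, so these means do not describe their lists. After quantile normalization, replicate 3 went both ways within lists. Examples are basal Itgb4 (-0.44) and Lgr5 (0.36), luminal Krt19 (-0.66) and Epcam (0.27), and proliferation genes Ccna2 (-0.81) and Pcna (0.59). Krt19 was the only luminal marker that was lower. All dermal mesenchyme markers above background were lower, from Col3a1 (-0.14) to Pdgfrb (-0.76), while Pdgfra, not above background, was higher (0.69). The part of these markers in the shift was not tested.

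Genes furthest above on replicate 3 were Eed (1.65), Kdm7a (1.55) and Kdm3a (1.54). All 3 kept this sign after quantile normalization (1.26, 1.19 and 1.14). Cbx2 (1.49), Cbx1 (1.30), Suz12 (1.18), Tet2 (1.08), Hdac11 (1.08) and Kdm2b (1.05) were the others over 1. Furthest below were Kdm2a (-0.45), Ring1 (-0.35) and Dnmt3l (-0.32), and these stayed below after quantile normalization (-0.70, -0.74 and -0.56). On replicate 1, Jarid2, Kdm2a and Ring1 lay furthest above the other arrays (0.22, 0.21 and 0.10) and Kdm3a, Eed and Cbx2 furthest below (-1.09, -0.87 and -0.83). On replicate 2, Kdm5a, Dnmt3l and Ring1 lay furthest above (0.26, 0.26 and 0.25) and Kdm7a, Tet2 and Eed furthest below (-1.01, -0.82 and -0.78).

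Probe sets of the same gene often differed in their shift. Of 27 genes with several probe sets, 15 had all of them higher on replicate 3 and 12 had both directions. The 2 probe sets of Kdm1a differed by -0.01 and 0.81 on replicate 3 from the mean of the others, those of Uhrf1 by 0.22 and 1.16 and those of Hdac7 by 0.07 and -0.65. For Dnmt3a the 5 probe sets ranged from 0.01 to 0.89, so its flat profile was that of its brightest probe set and not of each one. The brightest probe set deviated less than the median of the others in 16 of 27 genes (59.3%), against 56.7% of all genes with several probe sets. In Suz12 all 6 probe sets were higher on replicate 3, by 0.11 to 1.24.

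**Figure D3:**
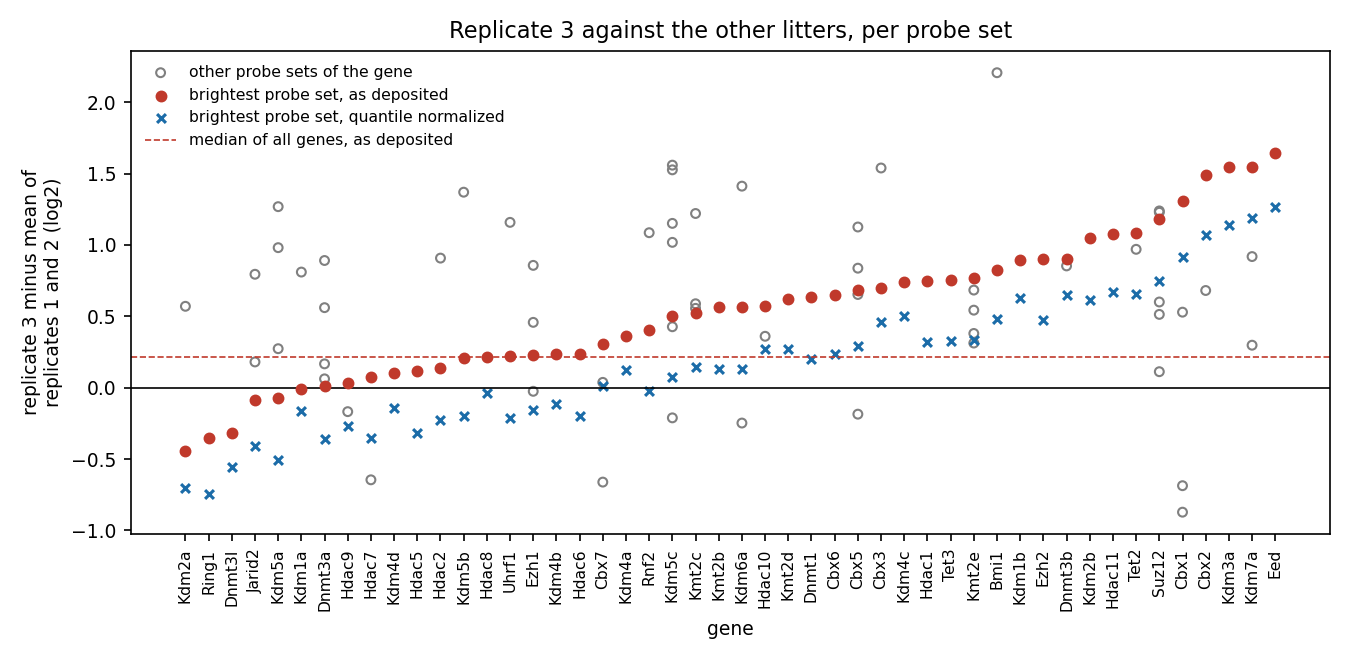
Difference of replicate 3 from the mean of replicates 1 and 2 (log2) for each of the 105 probe sets of the 48 genes, ordered by the brightest probe set (filled), with its value after quantile normalization (crosses) and the other probe sets (open). The filled points run from -0.45 (Kdm2a) to 1.65 (Eed) around the median of all genes at 0.22, and probe sets of Cbx1 lie on both sides of 0.

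Partner proteins of these enzymes were mostly detected too. Of 93 partner genes on 9 lists, 72 (77.4%) were above background, against 52.5% of all genes, with a median height of 2.17 above the threshold. PRC2 partners were detected in 5 of 7 cases, among them Aebp2 (9.05 ± 0.28), Lcor (7.83 ± 0.17) and Mtf2 (9.49 ± 0.23, SD, n = 3), a Polycomb-like protein gene that binds CpG-rich DNA. Epop (5.74 ± 0.33) and Phf1 were not, and Phf1 (6.56, 6.58 and 5.22 on replicates 1, 2 and 3) passed without replicate 3 (adjusted p = 0.00644, limma). PRC1 partners reached 7 of 11. These included L3mbtl2 (6.91 ± 0.20), the PCGF gene Pcgf2 (9.48 ± 0.19) and the polyhomeotic gene Phc1 (7.93, 7.85 and 9.66), and not Pcgf1 (6.29 ± 0.50) or Pcgf5 (5.97 ± 0.26).

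Partners of the deacetylases reached 17 of 18 genes, with the NuRD remodeller genes Chd3 (9.34 ± 0.30) and Chd4 (9.22 ± 0.17) and the NuRD subunit gene Gatad2a (10.39 ± 0.31, SD, n = 3). The exception was the Sin3 complex gene Sap30 (6.60 ± 0.37). All 12 measured partners of the MLL enzymes were above background, among them the core subunit genes Ash2l (9.08 ± 0.10) and Dpy30 (9.82 ± 0.39) and the CpG-binding gene Cxxc1 (10.56 ± 0.08). Other histone lysine methyltransferases reached 13 of 17, including the histone H3 core methyltransferase gene Dot1l (9.10 ± 0.07) and the lysine 9 methyltransferase genes Ehmt1 (10.20 ± 0.40) and Ehmt2 (9.83 ± 0.31). The meiotic gene Prdm9 (5.86 ± 0.11) and Setdb2 (6.12 ± 0.25) were not above background.

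Histone acetyltransferases, which oppose the deacetylases, reached 6 of 8, with Crebbp at 11.39 ± 0.19, Kat2a at 8.35 ± 0.35 and Hat1 at 7.999 ± 0.70 (SD, n = 3). Kat2b had 5.73, 5.69 and 7.36 on replicates 1, 2 and 3 and Kat6b 5.32, 5.25 and 6.67, and neither was above background. In this list 4 of 8 genes were over 1 higher on replicate 3 as deposited, against 9.36% of all genes. Of these, only Kat2b (1.36) and Kat6b (1.13), neither above background, stayed over 1 after quantile normalization, against 4.39% of all genes. Other JmjC genes, outside the 48, were detected in 2 of 7 cases, Jmjd1c (8.13 ± 0.10) and Phf2 (8.70 ± 0.32), while Hr (6.55 ± 0.43) and Kdm8 (5.73 ± 0.16) were not. Hr passed without replicate 3 (adjusted p = 0.000354, limma). Sirtuins, the NAD-dependent deacetylases, reached 4 of 5, including the mitochondrial genes Sirt3 (7.52 ± 0.17), Sirt4 (6.77 ± 0.16) and Sirt5 (7.09 ± 0.14). Sirt5 lost its call when cross-hybridising probe sets were dropped (0.18 above the threshold, adjusted p = 0.545). Sirt4 lost its call without replicate 1 or 2 (adjusted p = 0.126 and 0.0705), and Sirt1 (5.80, 5.90 and 7.82) was not above background. Readers of DNA methylation and base excision genes reached 8 of 10, with the repair nuclease gene Apex1 (10.28 ± 0.18) and the methyl-CpG binding genes Mbd1 (7.59 ± 0.28) and Mbd2 (9.77 ± 0.30). Mbd4 (6.52 ± 0.36) and Zbtb33 (5.74, 5.74 and 8.24) were not. Zbtb33 passed without replicate 1 or 2 (adjusted p = 0.0284 and 0.0316, limma), though only its value on replicate 3 exceeded the threshold. Those fits borrowed their variance mostly from all genes, so the pass does not show detection in each litter.

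Promoters of these genes were rich in CpG, a property the choice of genes did not use. RefSeq promoter sequences around the start (GRCm38.p6) were matched for 40 of the 48 genes. The ratio of observed to expected CpG, taken at the start with the highest ratio, had a median of 0.862 over the 40 genes and 0.701 over 13514 genes. A ratio of at least 0.6 was found in 36 of 40 (90%), against 60% of all genes. Genes above background differed from the others in the whole table as well, with medians of 0.803 and 0.459, and the 33 detected chromatin enzyme genes had 0.910. The 7 undetected genes with a sequence had a median of 0.682, and Dnmt3l (0.272) and Hdac8 (0.332) were the lowest of them. Hdac9 was detected with a ratio of 0.205.

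**Figure D4:**
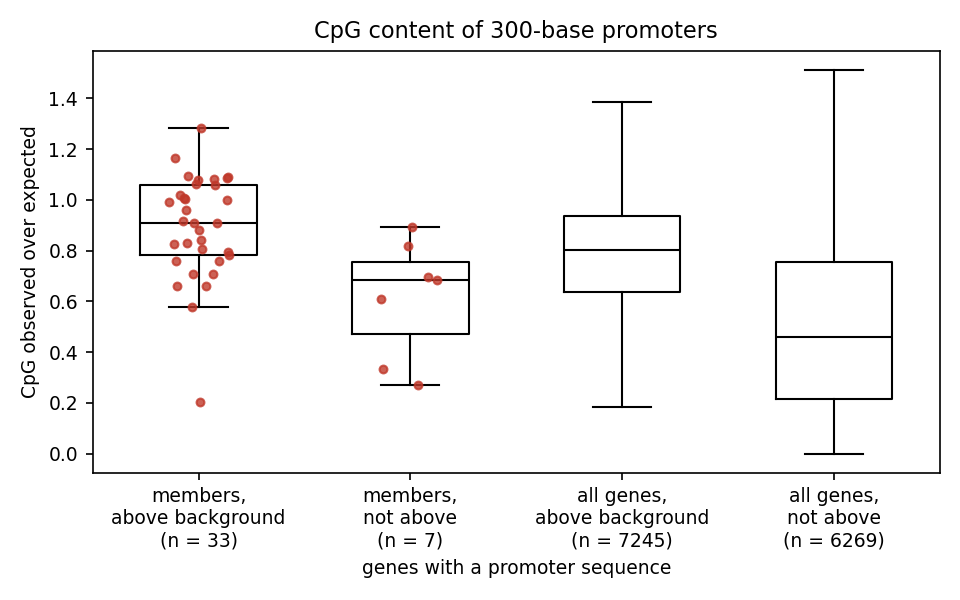
Ratio of observed to expected CpG in RefSeq promoters (highest of the starts of a gene) for members above background (n = 33) and not above it (n = 7), and for all genes above (n = 7245) and not above background (n = 6269). Boxes give the median and quartiles, whiskers reach the furthest value within 1.5 box lengths, points are single members, and the medians are 0.910, 0.682, 0.803 and 0.459 from left to right.

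Core letters of E2F sites, which are known from promoters of S phase genes, were searched on both strands as TTTCCCGC and TTTGGCGC. They occurred in promoters of 4 of the 40 genes (10%), against 2.72% of all genes with a promoter. Among genes above background the shares were 4 of 33 (12.1%) and 3.51%. The 30-base windows (28 for Dnmt1, at the end of the sequence) are shown on the strand of the gene with the word in capitals.
Ezh2, chr6:47595009-47595038, minus strand: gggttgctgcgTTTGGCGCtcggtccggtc
Suz12, chr11:79992876-79992905, plus strand: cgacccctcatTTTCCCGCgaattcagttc
Cbx3, chr6:51470437-51470466, plus strand: tggagccccgcTTTGGCGCgctccgagacg
Dnmt1, chr9:20952574-20952601, minus strand: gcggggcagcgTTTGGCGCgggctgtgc
The word began at position -219 relative to the start of Suz12 and -168 relative to that of Cbx3, and at position 4 for Ezh2 and 34 for Dnmt1. All 4 genes were above background in every setting run, as were 29 of the 48. On replicate 3 they lay above the mean of the other arrays, as did 42 of the 48 as deposited. They also did so after quantile normalization (0.48 for Ezh2, 0.75 for Suz12, 0.46 for Cbx3 and 0.20 for Dnmt1), as did 29 of the 48. A link of the words to either trait was not tested. A match of letters is a description of the sequence and not a measured binding site.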

How the data were processed

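RNA of 3 sorted cell pools was reverse transcribed, amplified for 25 cycles and hybridised to arrays, per the labels' protocols. Values are deposited on a log2 scale for each probe set. RMA and affy are the tools given, without versions, per the submitters' processing notes. Whether the arrays were normalized together is not given in the sources used here. Of 45141 probe sets, 28898 had 1 gene symbol in the platform annotation, 551 had several and the others none. Only those with 1 symbol were used, 1 per gene by the highest mean. Each value was taken minus its array's threshold. Whether the mean exceeded 0 was tested with limma 3.58.1 (R 4.3.3), using an intercept-only model, trended empirical Bayes variances, one-sided p-values and Benjamini-Hochberg adjustment over 17097 genes. The p-values rest on variances drawn towards those of all genes, so they do not measure the spread over the 3 litters alone. The variance was raised for genes of narrow spread such as Kdm1a. It was lowered for genes of wide spread such as Eed and Kdm7a. The number of litters limits the precision, and the threshold is taken as known without error. Litter differences were not tested. No further gene entered when symbols were updated through RefSeq identifiers.

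The genes, lists, background sets and tests were chosen with earlier results of these data known. Named were all 48 genes, the first 3 detected and first 2 undetected genes of each partner list in alphabetical order, basal and luminal markers, and the 3 genes furthest to each side per array. The dermal, endothelial, erythroid and proliferation markers named, and the genes over 1 on replicate 3, were named after their values were seen. The other lists covered dermal mesenchyme, suprabasal epidermis, endothelium, leukocytes, erythroid cells, proliferation and tissue-restricted genes. Of 43 tissue-restricted genes, 11 were above the receptor threshold. Alternatives were 11 planned settings and 1 added after seeing the data, in which replicates 1 and 2 were averaged. A gene not above background in both settings was counted as unaltered. The fit was also run on simulated data with independent noise on each array. Those data do not mimic the closeness of replicates 1 and 2, so no conclusion is drawn from them. Python 3.11.15 with pandas 2.3.3 and matplotlib 3.10.9 was used besides R.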

Additional observations from a re-analysis of the deposited data

How the results depend on the processing

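No paired analysis was possible because all samples belong to 1 group. The count of 40 genes ranged from 39 to 41 when 1 replicate was left out, and that of all genes from 8569 to 9632. That of partner genes (72) ranged from 72 to 75 and that of member probe sets (77) from 76 to 82. The fits without 1 replicate borrowed their variance mostly from all genes and do not measure the spread between litters. With tissue-restricted genes as background, 4687 genes in all and 51 member probe sets were called, and with the brightest antigenomic control 5399 genes, because both thresholds lie higher. Partner genes numbered 52 and 55 under these thresholds. Below the threshold set by tissue-restricted genes were Bmi1 (-0.35), Cbx7 (-0.73), Kdm4b (-0.03), Kdm7a (-0.28), Hdac9 (-0.52), Hdac10 (-0.63), Krt19 (-0.09), L3mbtl2 (-0.60), Sirt4 (-0.74) and Sirt5 (-0.42). Below the antigenomic control were Bmi1 (-0.22), Cbx7 (-0.60), Kdm7a (-0.15), Hdac9 (-0.39), Hdac10 (-0.50), L3mbtl2 (-0.47), Sirt4 (-0.61) and Sirt5 (-0.30). Among partner genes named, Hat1, Mbd1, Phc1 and Sirt3 lost their calls under both thresholds, and Lcor with tissue-restricted genes. With the mean of the probe sets, Kdm7a (-0.08), Hdac9 (-0.33) and Hdac10 (-0.78) lay below. The height of Phf1 ranged from -0.37 to 0.31 when 1 replicate was left out, the highest being without replicate 3. Genes over 1 higher on replicate 3 numbered 9 as deposited, 4 after quantile normalization and 5 after centring. The 1 gene over 1 lower on replicate 1 became 0 after quantile normalization, and the 1 on replicate 2 became 0 after quantile normalization, centring or averaging of probe sets. Arrays have no count depth, and 3 of them limit the precision.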
